A study of Rattus norvegicus with 56 samples.

Results

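The regions described here carried the promoter mark H3K4me3 throughout and, of the untreated brain tissue, had the repressive mark H3K27me3 in the older rats alone. Overlapping H3K4me3 peaks of 4 lists (ipsilateral and contralateral tissue, at 21 and at 13 months) were joined into 56333 regions. Those with a peak in every list, 18912, are called constitutive. Of these, 680 overlapped an H3K27me3 peak in both 21-month lists and in neither 13-month list, 3.60% of the constitutive regions and 8.71% of the 7810 that had H3K27me3 in any of the 4 lists. They are called the 21-month-only regions. The remaining 18232 constitutive regions include 4063 with H3K27me3 in all 4 lists, called always-marked, and 11102 with H3K27me3 in none of the 4, called unmarked. The regions were chosen by the presence and absence of H3K27me3 in the 4 untreated lists, so its values there are given as a description.

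H3K27me3 is laid down by Polycomb repressive complex 2 and marks genes kept silent, many of them developmental regulators. H3K4me3 marks the nucleosomes around active and poised transcription start sites, and the 2 marks together define what is called a bivalent promoter, which in a tissue of many cell types can also arise when different cells carry each mark. H3K9ac, an acetylation of the same histone tail, lies at active promoters and enhancers. In bulk tissue, fewer cells with a mark and less of the mark per cell cannot be told apart.

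Rats in every group had an intracerebral haemorrhage, which is bleeding within the brain, and their brain tissue was profiled by chromatin immunoprecipitation and sequencing (ChIP-seq). Ipsilateral tissue lies on the side of the haemorrhage and contralateral tissue on the opposite side. The treated groups were 21-month rats that received plasma from donors of 3 or of 22 months, with ipsilateral tissue profiled. The untreated groups were tissue of each side at 21 and at 13 months. The sample labels give 21 months for the older rats and the series text 22 months. No group without haemorrhage was analysed here, and strain and sex were not stated in the labels used. H3K4me3 was mapped in the 4 untreated groups only. Each untreated list pools 2 ChIP and 2 input libraries, each plasma list rests on 1 of each, and the labels do not say whether libraries came from separate animals.

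Because every group is 1 pooled peak list, no value has a spread between replicates and no difference between groups or classes of regions could be tested. Intervals of shares are 95% Wilson intervals over regions. Those of medians rest on the ranks of the regions, and those of differences between ages on a normal approximation over paired regions. All cover counting error only. The 6 H3K27me3 lists were of unequal size. The 21-month lists held 300668 ipsilateral and 367061 contralateral peaks from 117740131 and 73142126 ChIP tags kept, against 117866 and 51805 peaks from 71635071 and 35621686 tags at 13 months. The lists with plasma held 37241 peaks for 3-month and 51178 for 22-month donors. The file headers place the 21-month and 13-month lists in different processing folders, so age and processing run cannot be told apart. The plasma lists lie in a further folder, apart from all untreated lists, so plasma and processing run cannot be told apart either.

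The number of 21-month-only regions depended on which peaks were entered. The opposite pattern, H3K27me3 in both 13-month lists and neither 21-month list, was found in 25 regions, 0.132% of the constitutive regions. When the 51805 peaks of highest −log10 q-value were taken from each untreated list, 60 regions met the rule for 21 months only and 111 the rule for 13 months only, so the order of the counts turned round. Of those 60, 38 were among the 680. With peaks of a fold enrichment of 4 or more (the authors' own ratio of ChIP to local background for each peak), 235 regions met the rule, of which 8 were among the 680. The share of 3.60% stood below the 6.04% of 37421 H3K4me3 regions that lacked a peak in at least 1 of the 4 lists. Of 493767 joined H3K27me3 regions, which all hold the mark by construction, 22.0% had this pattern. The share to set beside that is the 8.71% of the 7810 constitutive regions with H3K27me3 in any of the 4 lists.

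At the 21-month-only regions the H3K27me3 peaks had lower folds and were shorter than at always-marked regions. The median fold was 2.56 in ipsilateral and 3.25 in contralateral tissue (680 regions), and the lowest and highest folds were 1.56 and 7.26 ipsilaterally and 1.75 and 16.5 contralaterally. Always-marked regions had median 21-month folds of 4.52 and 7.25. Against all peaks of the same lists, whose median folds were 2.63 and 2.99, 54.7% of the 680 lay below the median ipsilaterally and 37.8% contralaterally. A fold of 4 or more on both sides was reached by 8 of the 680 and a fold of 8 by 0. A −log10 q-value of 10 or more was reached by 83 regions ipsilaterally (12.2%) and 171 contralaterally (25.1%), against 86.1% and 93.2% of always-marked regions. The contralateral fold was the higher of the pair in 525 of the 680. All of these values lie on the contrast that chose the regions.

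The 21-month peaks took up a part of each region. H3K27me3 peaks covered a median of 34.3% of the region length ipsilaterally and 44.3% contralaterally, against 92.8% and 91.0% in always-marked regions. In the 922 regions with H3K27me3 in both 21-month and 1 13-month list the medians were 48.8% and 54.9%. The median of the mean of both sides was 41.2% in the 680. At least 50 percent of the region was covered on both sides in 139 of the 680. The peaks lay wholly within the H3K4me3 region in 60.9% of the 680 ipsilaterally and 56.0% contralaterally, against 24.8% and 28.5% of always-marked regions. Among the 922 regions the shares were 54.3% and 55.5%, so this was not particular to the 680. A peak that ran past both edges was found in 4.56% and 7.65% of the 680, against 42.5% and 39.8% of always-marked regions. Among the 922 it was found in 11.1% and 11.6%. The longest overlapping peak had a median length of 419 bp ipsilaterally and 532.5 bp contralaterally, against 1829 and 1654 bp at always-marked regions and medians of 365 and 381 bp over all peaks of these lists. The highest point of an H3K27me3 peak fell inside the region in 87.5% and 89.0% of the 680, close to the 90.3% and 94.3% of always-marked regions.

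**Figure D1:**
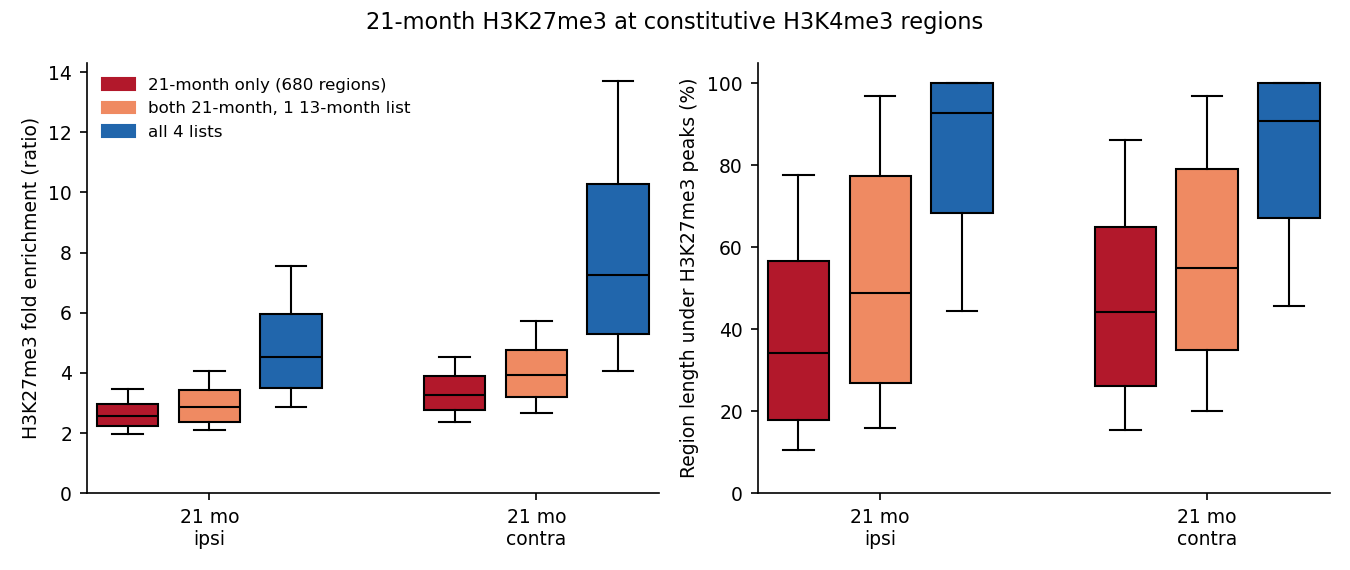
H3K27me3 in the 21-month lists at constitutive H3K4me3 regions, as the authors' fold enrichment (left) and as the percentage of the region length under H3K27me3 peaks (right), for the 680 21-month-only regions, 922 regions with H3K27me3 in both 21-month and 1 13-month list, and 4063 always-marked regions. Lines in the boxes are medians, boxes span the 25th to 75th and whiskers the 10th to 90th percentile; the 21-month-only boxes lie lowest in both panels, with median folds of 2.56 and 3.25.

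The region ranked highest by the lower of its 2 21-month folds was touched at its edge only. The region chr1:264960183-264960851 (669 bp, on the unnamed build of the deposited lists) overlapped peaks with folds of 7.26 ipsilaterally and 16.5 contralaterally at 21 months. Those strong peaks reached into it by 47 and 27 bp only, and the nearest 13-month peaks lay 39 bp away ipsilaterally and 137 bp away contralaterally. Its H3K4me3 folds at 21 months were 4.69 and 5.97, against 3.95 and 3.60 at 13 months. The region borders H3K27me3 that the 13-month lists hold as well.

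The next regions in that ranking overlapped their peaks over more bases. The region chr2:240485424-240487037 (1614 bp) had 21-month folds of 5.05 ipsilaterally, over 593 bp, and 5.08 contralaterally, over 770 bp. Its nearest 13-month peak was 75328 bp away, so it lay far from earlier H3K27me3. Its H3K4me3 folds at 21 months were 9.36 and 15.9, against 8.94 and 9.45 at 13 months, and H3K9ac was present in all 6 lists, with folds of 3.86 to 8.55. The H3K27me3 list with plasma of 3-month rats held a peak there too, with a fold of 2.27, and that with plasma of 22-month rats held none.

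Short regions could be covered almost whole. The region chr6:3271931-3272499 (569 bp) had 21-month H3K27me3 folds of 4.47 ipsilaterally and 5.37 contralaterally, over 569 and 519 bp. H3K9ac was listed there in 4 of 6 lists, absent from the list with plasma of 3-month rats and from 13-month ipsilateral tissue. The H3K27me3 list with plasma of 3-month rats held a peak there, with a fold of 2.63. The region chr14:6058381-6058978 (598 bp) had folds of 4.06 and 6.57 over 546 and 559 bp, and H3K9ac folds of 1.82 to 4.86 in all 6 lists. H3K27me3 over most of the region and H3K9ac thus stood together in the lists of the same tissue here.

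In the other 6 of the 10 leading regions the lower of the 2 folds was 3.95 to 4.53. The region chr12:48566405-48567826 had 21-month folds of 4.67 and 4.53, and chr3:177225380-177228078 had 4.71 and 4.18. The latter also had an H3K27me3 peak with plasma of 3-month rats, with a fold of 2.62. At chr10:29448149-29448972, with folds of 4.42 and 4.07, the 13-month contralateral list was the only one of the 6 H3K9ac lists with a peak. The region on the X chromosome, chrX:18162203-18163034, had folds of 3.96 and 5.04 and lay 67068 bp from the nearest 13-month peak. The remaining 2, chr3:140274602-140275662 and chr1:213809927-213811820, lay 340 and 935 bp from a 13-month ipsilateral peak.

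The rule counts 1 bp of overlap as presence, and some regions sat at that limit. The 5 members with the smallest 21-month overlap on either side had 1, 1, 5, 6 and 13 bp, and 36 of the 680 had under 100 bp on a side. Just outside the rule, 5 regions with H3K27me3 on both sides at 21 months were left out by 13-month overlaps of 5, 6, 46, 58 and 66 bp. There were 12 such regions with under 100 bp at 13 months, and 15 members had a 13-month peak within 100 bp.

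The H3K4me3 regions themselves were short and of low fold for constitutive regions. The joined length had a median of 1173.5 bp (25th to 75th percentile 730.75 to 1995.75 bp, range 177 to 6931 bp) in the 680, against 1643 bp in the other constitutive regions, 1630 bp in always-marked and 1670 bp in unmarked regions. The median difference from the other constitutive regions was −469.5 bp (95% interval of the median of the 680, −546 to −414 bp). It was −135 bp (−267 to 20 bp, which includes no difference) when H3K4me3 peaks of a fold of 4 or more alone were joined, which left 348 regions that met the rule, all of them overlapping the 680.

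The lower length was seen in each H3K4me3 list. Peaks covered a median of 909 bp in 21-month ipsilateral, 1104 bp in 21-month contralateral, 806 bp in 13-month ipsilateral and 705.5 bp in 13-month contralateral tissue. The other constitutive regions had 1411, 1588, 1320 and 1232 bp in the same lists. Median H3K4me3 folds were 6.04, 8.57, 5.16 and 4.55 in that order of lists, against 10.3, 14.3, 8.49 and 8.24. Between 78.1% and 81.6% of the 680 had a fold below the median of all constitutive regions in a given list. Always-marked regions had median folds of 7.02, 11.0, 5.72 and 5.75, between those of the 680 and of the other constitutive regions in each list.

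When constitutive regions were split by length into 4 bands of about equal number, 272 of the 680 fell in the shortest band, 163 to 966 bp, and made up 5.75% of it. The band of 967 to 1626 bp held 177 (3.75% of the band), that of 1627 to 2318 bp held 95 (2.01%), and the longest held 136 (2.88%). The share was highest in the shortest band and lowest in that of 1627 to 2318 bp.

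**Figure D2:**
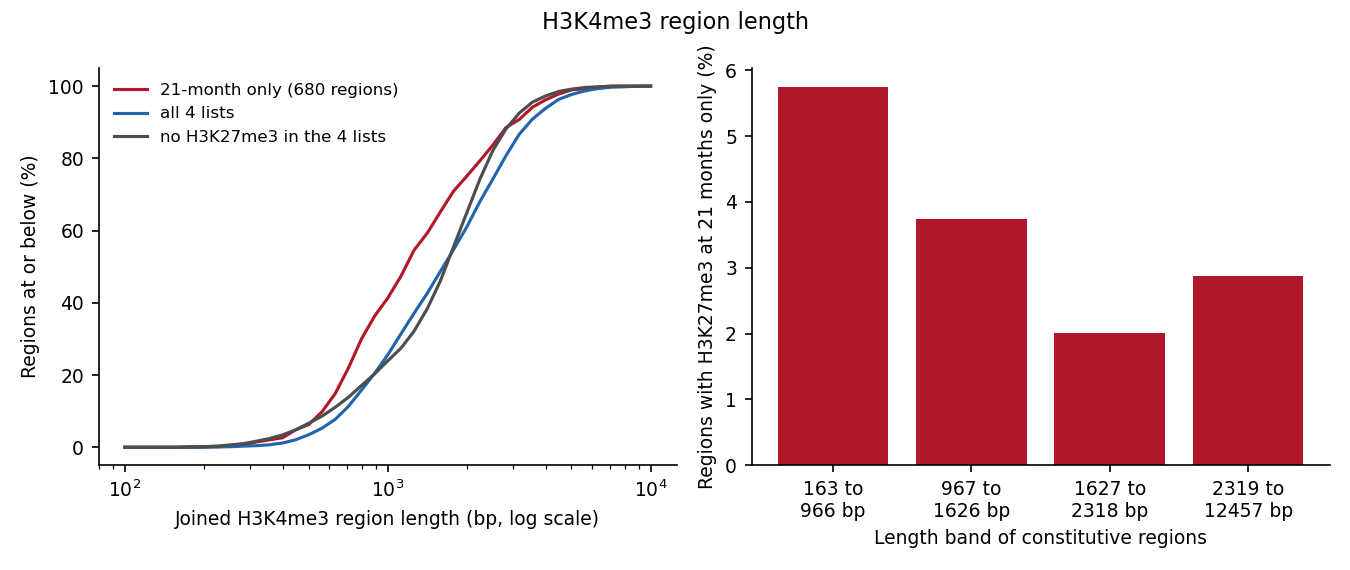
Length of joined H3K4me3 regions in bp. Left, cumulative percentage of regions at or below each length (log scale) for 680 21-month-only, 4063 always-marked and 11102 unmarked regions, with medians of 1173.5, 1630 and 1670 bp; right, the percentage of constitutive regions with H3K27me3 at 21 months only in each of 4 bands of length, 5.75% in the shortest.

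Of the 5 longest members, all but the longest held little H3K27me3 for their size. The region chr3:4034911-4041841 spanned 6931 bp, with 21-month H3K4me3 folds of 9.12 and 18.1, against 7.10 and 11.4 at 13 months. H3K27me3 covered 826 bp of it ipsilaterally, with a fold of 2.22, and 3385 bp contralaterally, with a fold of 4.15. It had by far the most contralateral cover of the 5 longest, and its H3K9ac folds were 2.87 to 8.79 over the 6 lists. In the other 4 (chr11:80253540-80260121, chr2:41910413-41916671, chr4:180230813-180236741 and chr2:262911248-262917006) 21-month H3K27me3 covered 260 to 542 bp ipsilaterally and 700 to 897 bp contralaterally. That came to 8.22% to 10.9% of their length, with folds of 1.84 to 2.46 and 2.72 to 3.92. H3K9ac folds there reached 25.7, in 13-month ipsilateral tissue at chr11:80253540-80260121, and H3K9ac was listed in all 6 lists at each of the 5.

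The rule does not use H3K9ac, and most of the 680 carried it. It was listed at 475 of the 680 with plasma of 3-month rats (69.9%, interval 66.3% to 73.2%), where 87.0% of all constitutive regions had a peak, and at 638 with plasma of 22-month rats (93.8%, 91.8% to 95.4%), where 96.6% did. In untreated 21-month tissue it was listed at 642 ipsilaterally (94.4%, 92.4% to 95.9%) and 600 contralaterally (88.2%, 85.6% to 90.4%), where the shares of all constitutive regions were 96.0% and 93.8%. At 13 months these counts were 579 (85.1%, 82.3% to 87.6%) and 614 (90.3%, 87.8% to 92.3%), where the shares of all constitutive regions were 92.3% and 95.3%. The 680 stood below the share of all constitutive regions in each of the 6 lists. The gap was smallest in 21-month ipsilateral tissue and largest with plasma of 3-month rats, whose H3K9ac list was also the shortest, with 50651 peaks against 123863 with plasma of 22-month rats.

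The list with plasma of 3-month rats also had the lowest share of the 6 lists in always-marked and in unmarked regions. Always-marked regions had H3K9ac in 75.3% with plasma of 3-month rats and 96.8% with plasma of 22-month rats, and unmarked regions in 93.4% and 97.4%. In 21-month contralateral tissue the share was 88.2% in the 680 and 84.0% in always-marked regions, and this was the only list in which the 680 stood above them.

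**Figure D3:**
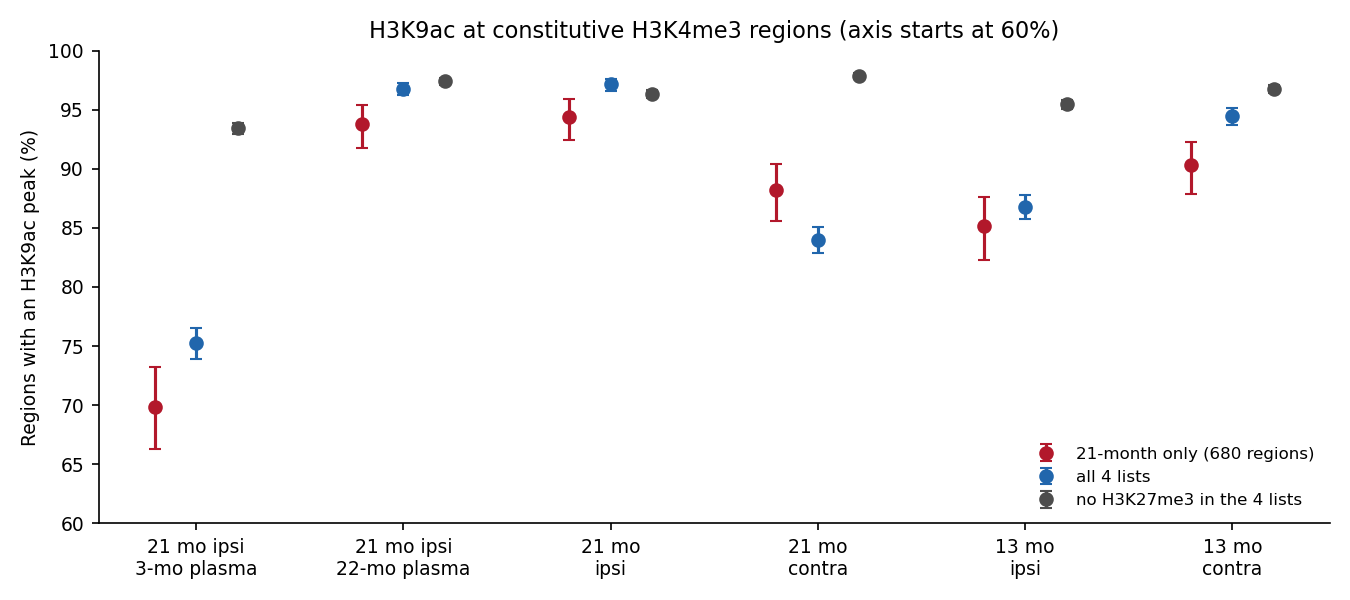
Percentage of regions with an H3K9ac peak in each of the 6 lists (points, with 95% Wilson intervals over regions; the axis starts at 60%), for 680 21-month-only, 4063 always-marked and 11102 unmarked constitutive regions. The 21-month-only regions lie at 69.9% with plasma of 3-month rats and between 85.1% and 94.4% in the other 5 lists, below the unmarked regions in each list.

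All 4 untreated lists held H3K9ac at 521 of the 680 (76.6%, 73.3% to 79.6%), where 88.0% of all constitutive regions had it, 79.0% of always-marked and 92.8% of unmarked regions. Length moved with this share. From the shortest to the longest band it was 59.2%, 81.4%, 87.4% and 97.8% in the 680, against 66.9%, 90.5%, 97.0% and 98.5% in the other constitutive regions. In the longest band the shares lay within 1 percentage point of each other. In the shortest band always-marked regions had 54.3% and unmarked regions 73.4%. When H3K9ac peaks of a fold of 4 or more alone were counted, the share in all 4 lists was 29.3% of the 680, against 56.0% of all constitutive regions. The share also moved with H3K4me3 fold. When H3K4me3 peaks of a fold of 4 or more alone were joined, it was 94.0% of the 348 regions that met the rule. Of all constitutive regions joined in that way it was 96.1%.

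Where H3K9ac was present, its fold was modest. Medians in the 680 were 3.43 and 5.77 with plasma of 3-month and of 22-month rats, 4.75 and 3.74 at 21 months on the ipsilateral and contralateral side, and 6.02 and 5.46 at 13 months. The other constitutive regions had 4.47 and 8.74 with plasma, 6.71 and 4.79 at 21 months, and 9.23 and 8.80 at 13 months. Within the 680, bases under ipsilateral 21-month H3K27me3 peaks were under H3K9ac peaks as well in 83.2% of cases, against 64.3% of the bases outside them. Contralaterally these shares were 72.8% and 68.7%. In always-marked regions they were 76.5% against 50.6% ipsilaterally and 59.9% against 57.9% contralaterally. Within the 680, H3K4me3 peaks of the same tissue lay over 86.0% of the bases under H3K27me3 and 80.7% of those outside ipsilaterally. Contralaterally they lay over 95.6% and 94.6%.

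The H3K9ac lists were also compared between the ages at each of the 680. Ipsilaterally, 74 of the 680 had H3K9ac at 21 and not at 13 months (10.9%) and 11 the reverse. Contralaterally, 27 had it at 21 and not at 13 months and 41 the reverse. Always-marked regions had H3K9ac at 21 months alone in 10.9% and at 13 months alone in 0.541% ipsilaterally, and in 1.11% and 11.6% contralaterally. Over all other constitutive regions these shares were 4.94% and 1.44% ipsilaterally and 1.99% and 3.48% contralaterally. Duplicates made up 81.8% of the H3K9ac tags of 13-month ipsilateral tissue, which left 19323327 tags, the fewest of the 6 lists. Their part in the ipsilateral count was not tested. With H3K9ac peaks of a fold of 4 or more alone, the share at 21 minus that at 13 months was negative on both sides, −10.7 percentage points ipsilaterally and −28.8 contralaterally, against 9.26 and −2.06 with all peaks.

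Only 13 of the 680 (1.91%, 1.12% to 3.24%) had no H3K9ac in any untreated list, where 1.36% of all constitutive regions had none. The 5 of these with the highest lower 21-month H3K27me3 fold were short, 411 to 854 bp, with H3K4me3 folds of 1.90 to 5.13. The region chr15:58282153-58283006 was covered whole by 21-month H3K27me3 on both sides, with folds of 3.30 and 4.13, and had no H3K9ac in the plasma lists either. The region chr7:51944517-51944987 was also covered whole, with folds of 2.71 and 2.59, and had H3K9ac with plasma of 22-month rats alone, with a fold of 3.22. At chr4:171968719-171969129, where H3K27me3 covered 371 and 318 of 411 bp, H3K9ac was likewise listed with that plasma alone, with a fold of 4.15. The other 2, chr7:139815034-139815573 and chr19:53248618-53249188, had none in the 6 lists. These few regions had 21-month H3K27me3 and no acetylation listed in untreated tissue.

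Many of the 680 lay close to H3K27me3 that was already listed at 13 months. The nearest 13-month peak of either side was at a median of 6162 bp (679 regions with such a peak on their chromosome, range 8 to 402209 bp), against 27238 bp in unmarked regions and 15190.5 bp in regions with H3K27me3 in 1 of the 21-month lists alone. All 3 classes lack a 13-month peak inside the region by definition. A 13-month peak within 1 kb was found at 149 of the 680 (21.9%), within 5 kb at 313 (46.0%, 42.3% to 49.8%) and within 20 kb at 503 (74.0%). Over all constitutive regions without a 13-month peak in them the shares were 3.45%, 15.1% and 44.7%. Unmarked regions had 1.76%, 12.0% and 41.3%, and regions with H3K27me3 in 1 21-month list 7.26%, 23.5% and 56.4%. Over 100 kb away were 31 of the 680 (4.56%), against 14.5% of unmarked regions.

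The nearby 13-month peak was more often ipsilateral. It lay within 5 kb in 275 regions for the ipsilateral list of 117866 peaks and in 177 for the contralateral list of 51805. The share within 5 kb was 29.4% when H3K27me3 peaks of a fold of 4 or more alone were used, against 5.12% of all constitutive regions without a 13-month peak in them. With equal numbers of peaks in the untreated lists it was 61.7%, against 11.5%. Few single peaks linked the ages: the 21-month peak over a region also overlapped a 13-month peak outside it in 25 of the 680 ipsilaterally and 26 contralaterally. When 21-month peaks were joined across gaps of up to 1 kb, the joined stretch reached a 13-month peak in 128 regions (18.8%) ipsilaterally and 149 (21.9%) contralaterally.

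**Figure D4:**
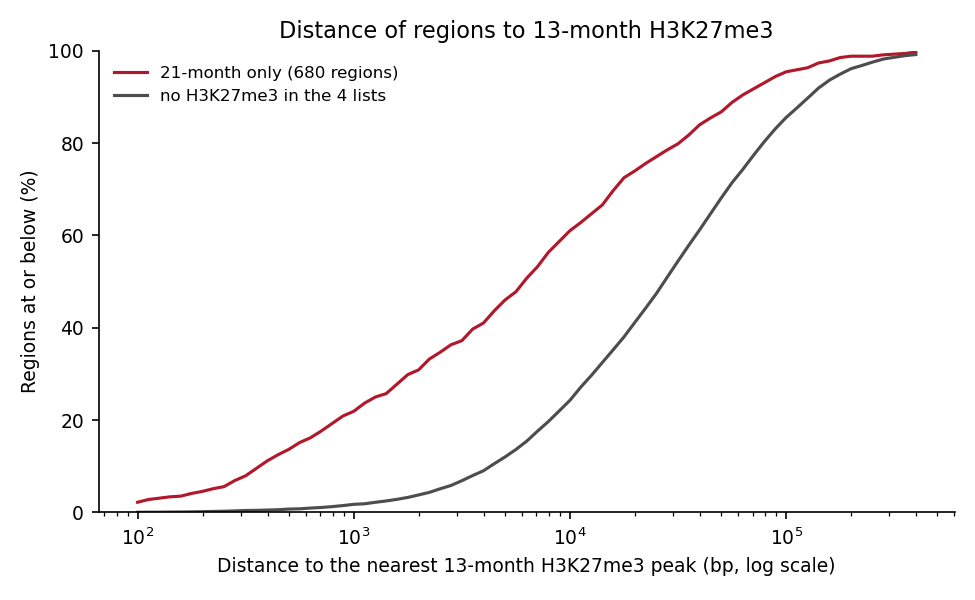
Cumulative percentage of regions at or below each distance, in bp on a log scale, to the nearest 13-month H3K27me3 peak of either side, for 680 21-month-only and 11102 unmarked regions. The curve of the 21-month-only regions lies to the left, with 46.0% within 5 kb against 12.0%, and medians of 6162 and 27238 bp.

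In the 10 kb on either side of the 680, with the regions themselves left out, H3K27me3 covered a mean of 11.5% of bases ipsilaterally and 15.5% contralaterally at 21 months, against 3.56% and 1.73% at 13 months. The same flanks of unmarked regions had 2.82% and 4.17% at 21 months, against 1.14% and 0.512% at 13 months. Peaks that cross a region's edge count in its flanks, so the rule bears on these values as well. With plasma the means in the flanks of the 680 were 0.871% for 3-month and 0.705% for 22-month donors. An always-marked region lay within 5 kb of 55 of the 680 (8.09%), against 1.51% of unmarked regions. Another 21-month-only region lay within 5 kb of 12.

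Distance moved with the other features of the 680. The 313 regions within 5 kb of a 13-month peak had a median length of 976 bp, the 190 at 5 to 20 kb had 1269 bp, and the 177 farther away had 1662 bp. In the same order, H3K27me3 covered a median of 47.7%, 40.2% and 32.1% of the region at 21 months. H3K9ac was in all 4 untreated lists in 68.1%, 82.1% and 85.9%. The near regions were thus shorter, less often acetylated and covered over a larger percentage of their length. A larger percentage of a shorter region need not mean more bases. The ipsilateral median fold was close in all, 2.68, 2.47 and 2.46. Contralaterally it was 3.22, 3.18 and 3.39, highest in the farthest regions. These distance classes and the length bands were set after the values were seen.

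The 5 regions farthest from 13-month H3K27me3 were acetylated in all 4 untreated lists. The farthest, chr1:155596113-155598781, lay 402209 bp from the nearest 13-month peak, a contralateral one. Its 21-month H3K27me3 folds were 3.26 over 507 bp and 3.21 over 837 bp of its 2669 bp, with 21-month H3K4me3 folds of 9.50 and 13.6, against 4.97 and 3.78 at 13 months. The region chr7:52325195-52326762 lay 375341 bp away, with H3K27me3 folds of 3.38 and 3.60. The other 3, chr11:53242771-53243236, chr20:13141943-13143083 and chr1:6625520-6626719, had folds of 1.79 to 3.29 ipsilaterally and 2.29 to 3.69 contralaterally. None of the 5 had H3K27me3 in a plasma list.

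By chromosome, the share of constitutive regions with H3K27me3 at 21 months only was lowest on X, with 11 of 596 (1.85%), and highest on chromosome 13, with 30 of 591 (5.08%). Chromosome 1 held the most, 89 of 2275 (3.91%). On Y there was none among 7 constitutive regions, and 1 of the 680 lay on an unplaced scaffold.

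After plasma, H3K27me3 was seldom listed at the 680. With plasma of 3-month rats 26 had a peak (3.82%, 2.62% to 5.54%), where 15.7% of all constitutive regions did, and with plasma of 22-month rats 19 had one (2.79%, 1.80% to 4.32%), where 11.8% did. At least 1 plasma list held a peak at 45 (6.62%, 4.98% to 8.74%), against 17.3% of all constitutive regions. The 26 and the 19 were separate regions: 0 of the 680 had a peak with both plasmas, which at 3 counts of the total allows a share of up to 0.441%, where 10.2% of all constitutive regions had both. Always-marked regions made up 1829 of the 1927 constitutive regions with both, and 45.0% of them had both. The share was 2.93% of regions with both 21-month lists and 1 13-month list. It was 0.185% of those with 1 21-month list and 0.144% of unmarked regions.

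The other classes frame these values. A peak in at least 1 plasma list was found in 71.9% of always-marked regions, 17.0% of those with H3K27me3 in both 21-month lists and 1 13-month list, 1.35% of those with 1 21-month list and 0.306% of unmarked regions. The 680 stood between regions with 1 21-month list alone and those with both 21-month lists and 1 13-month list. With equal numbers of peaks in the 4 untreated lists, 30.0% of the 60 regions that then met the rule had a plasma peak, against 17.3% of all constitutive regions, and with equal numbers in all 6 lists 30.2% of 53, against 16.8%. In these settings of equal numbers the share thus stood above that of all constitutive regions, and not below it as with the lists as deposited. With H3K27me3 peaks of a fold of 4 or more alone it was 5.53% of 235 regions, against 6.71% of all constitutive regions. The plasma lists hold the fewest H3K27me3 peaks and each rests on 1 ChIP library, and the part of this in the low shares was not tested.

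**Figure D5:**
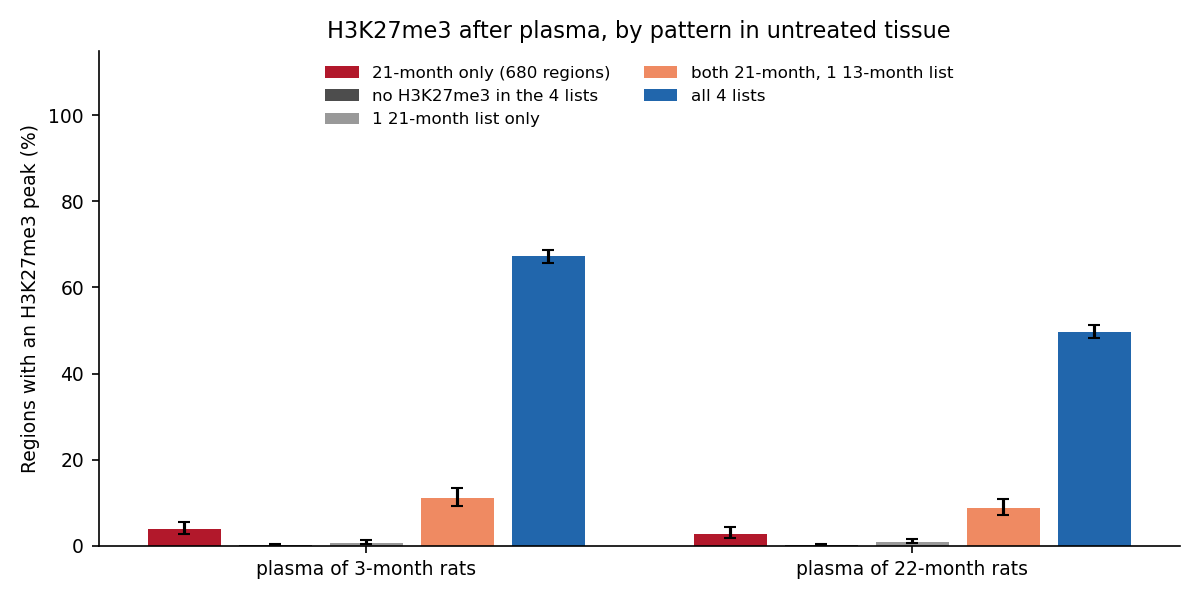
Percentage of constitutive H3K4me3 regions with an H3K27me3 peak after plasma of 3-month or 22-month donors (ipsilateral tissue, 21-month rats), by the H3K27me3 pattern in untreated tissue; bars are shares and lines 95% Wilson intervals over regions. The 21-month-only regions have 3.82% and 2.79%, against 67.2% and 49.7% of always-marked regions.

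A plasma peak was more frequent where the untreated 21-month peak was stronger. Of the 680, 6 of 312 with an ipsilateral fold under 2.5 had one (1.92%), 26 of 304 with a fold of 2.5 to 3.5 (8.55%) and 12 of 61 with a fold of 3.5 to 5 (19.7%). Always-marked regions in the same bands of fold had 22.8%, 42.9% and 69.2%. A plasma peak inside the region or within 5 kb was found at 157 of the 680 (23.1%, 20.1% to 26.4%). Of all constitutive regions 24.1% had one, a share within that interval. These shares include the 6.62% of the 680 and 17.3% of all constitutive regions with a plasma peak inside. A peak inside or within 5 kb was found at 4.92% of unmarked and 79.0% of always-marked regions.

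Since none had a peak with both plasmas, the strongest with either were singled out after their values were seen. With plasma of 3-month rats the region chr1:61487175-61488449 led, with a fold of 4.50, against 3.47 in untreated 21-month ipsilateral tissue. Its contralateral fold at 21 months was 5.23, and H3K9ac was present in all 6 lists. The next, chr1:41033345-41034858, had 3.82 with that plasma, against 3.57 untreated. The region chr4:126482455-126482743, 289 bp long, had 3.74 against 3.48 and was covered whole on both sides at 21 months. Then came chr16:25854980-25856861, with a lower fold after plasma, 3.69 against 3.78, and chr2:248214855-248216683, with 3.24 against 3.00.

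With plasma of 22-month rats the region chr13:67349326-67352821 led, with a fold of 5.17, against 3.17 in untreated 21-month ipsilateral tissue. It is 3496 bp long, with 21-month H3K4me3 folds of 21.7 and 16.0, against 9.50 and 12.9 at 13 months. The region chr12:18928887-18930259 had 4.72 against 3.03, and chr6:48445192-48448751 had 4.08 against 2.97. The other 2 of the 5 highest were chr14:74557493-74558386, with 3.79 against 2.87, and chr17:87601459-87603674, with 3.48 against 3.29. In 21-month ipsilateral tissue the H3K4me3 fold was 2.94 and 3.02 at these 2 and 9.05 or more at the first 3. Folds of different lists carry no correction for depth or background and were only set side by side.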

How the data were processed

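ChIP-seq peak lists of H3K4me3, H3K9ac and H3K27me3 from rat brain were used, 16 in all, from 28 ChIP and 28 input libraries; groups were taken from the labels. Tools named in the submitters' processing notes are Bowtie2, cutadapt and HOMER, with no version, and the authors called peaks with MACS 2.1.1.20160309 at a q-value cutoff of 0.05 on the pooled libraries of each group, per the file headers. Neither labels nor headers name a genome build. The deposited lists give each peak a fold enrichment, a ratio to local background, and a −log10 q-value, both the authors' own, which served to describe, rank or filter peaks. Narrow calling can split broad H3K27me3 domains into short peaks.

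Intervals were joined and compared in Python 3.11.15 with numpy 2.4.6 and pandas 2.3.3, with a minimum overlap of 1 bp, and checked on simulated lists. ChIP tags kept ranged between 19323327 and 117740131 per list. A region's fold is the highest of its overlapping peaks. Distances are edge to edge. Regions, lists and alternatives were chosen with earlier results of these data known. Named regions, on assembled chromosomes, were the 10 with the highest lower 21-month H3K27me3 fold, the 5 longest, the 5 of highest such fold among those without untreated H3K9ac, the 5 farthest from 13-month H3K27me3, the 5 smallest overlaps on each side of the rule, and 5 with both plasmas, of which there were none. Genes, marker genes, gene lists and sequences were not used here, since no genome or annotation of the lists' build was in hand.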

Additional observations from a re-analysis of the deposited data

Results flagged for a closer look

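The difference between the ages in the share of the 680 regions with H3K9ac had opposite signs on the 2 sides. Ipsilaterally it was 94.4% at 21 months and 85.1% at 13 months, a difference of 9.26 percentage points (95% interval over regions, 6.70 to 11.8). Contralaterally it was 88.2% at 21 months and 90.3% at 13 months, a difference of −2.06 percentage points (−4.43 to 0.313). The intervals take regions as units and cover counting error only, so they are no test of age. With 1 pooled list per group, neither the age differences nor the difference between the sides could be tested. Other constitutive regions had differences of the same signs, with 96.0% at 21 months against 92.5% at 13 months ipsilaterally and 94.0% against 95.5% contralaterally. With equal numbers of H3K9ac peaks in the 6 lists, an alternative chosen after seeing the data, the differences were 7.21 and −6.62 percentage points. When peaks of a fold of 4 or more alone were counted, also chosen after seeing the data, both were negative, −10.7 ipsilaterally and −28.8 contralaterally. ChIP tags kept for H3K9ac were 66910243 at 21 months and 19323327 at 13 months ipsilaterally, against 99213634 and 46299770 contralaterally.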

How the results depend on the processing

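Over the 7 main results, 53 alternative values were computed, of which 25 stayed near the reported value (a count within 1.5 times, a share or median within its 95% interval) and 28 did not. Taking equal numbers of H3K27me3 peaks in the 4 untreated lists gave 60 regions for 21 months only and 111 for 13 months only, with H3K9ac in all 4 lists in 70.0%, a 13-month peak within 5 kb in 61.7%, a plasma peak in 30.0% and a median cover of 59.5%. With equal numbers in all 6 lists the plasma share was 30.2%. With H3K27me3 peaks of fold 4 or more the counts were 235 and 11, the median length difference −345 bp, H3K9ac in all 4 lists 81.3%, the share within 5 kb 29.4% and the cover 77.0%. With H3K4me3 peaks of fold 4 or more they were 348 and 4, −135 bp, 94.0%, 37.6% and 32.5%. Requiring no peak of the other age within 1 kb left 16 regions for 13 months only, a length difference of −359 bp and a cover of 37.9%. Joining H3K4me3 across gaps of up to 1 kb gave 40.6% within 5 kb and a cover of 36.5%. H3K9ac in all 4 lists was 62.9% with equal numbers of H3K9ac peaks and 29.3% with those of fold 4 or more. The share near 13-month peaks was 21.9% within 1 kb and 74.0% within 20 kb. The cause of these changes was not tested. The H3K9ac difference between ages turned to −10.7 percentage points ipsilaterally with peaks of fold 4 or more. The length difference was negative under each alternative run, but with H3K4me3 peaks of fold 4 or more its interval, −267 to 20 bp, included 0.

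No paired analysis was possible because the libraries of a group were pooled before peak calling, which also left no replicate to leave out. ChIP tags kept ordered the H3K27me3 lists by size only in part. The list with plasma of 3-month rats held 37241 peaks from 41700562 tags, and the 13-month contralateral list 51805 from 35621686. On each side, though, the 21-month list had more tags kept and more peaks than the 13-month list. The part of depth in list size was not tested.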
